A study of Mus musculus with 4 samples.

Results

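The genes described here encode the signalling machinery of the T cell receptor in mouse Th17 cells, CD4 helper T cells that make the cytokine IL-17. They comprise the CD3 chains, the coreceptor and other surface proteins, the proximal kinases, the adaptors, downstream enzymes and other effectors, and the negative regulators. The 38 members were listed by function and matched by symbol to GENCODE M21, and each was found once among the 55450 genes of the authors' deposited table. All 38 were among the 29383 genes with a fold change and had a mean normalized count of at least 10.

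RNA was sequenced from 4 cultures of Th17 cells, all carrying a Cas9 transgene. In 2 cultures the retrovirus brought a guide against Adarb1 (sgAdarb1), the gene of the RNA-editing enzyme ADAR2, and in the other 2 it was the empty PSIN vector, which carries no guide. Each of 2 donor mice, 8 to 12 weeks old, supplied 1 culture per arm, by the titles and the series' design text. That text calls the mice wildtype, while the genotype label of every sample gives the Cas9 transgene. Naive CD4 T cells were first stimulated on a plate through CD3 (0.25 µg/mL antibody) and CD28 (1 µg/mL antibody), were transduced 24 h later, and were then polarized for 72 h with TGF-β (0.3 ng/mL) and IL-6 (20 ng/mL). Every culture, controls included, had therefore been stimulated through the receptor whose components are described. The treatment tag of 2 of the 4 samples goes against the title, and the grouping behind the fold changes is the authors' and was not checked here. Which group is the numerator of the fold changes is not written in the table, so a positive value is read as higher in sgAdarb1, the order in which the design text compares the groups. No value per culture was used, so each gene has 1 mean level over the 4 libraries and 1 fold change, with the standard error (SE) of the authors' DESeq2 fit.

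As background, the T cell receptor has no enzymatic activity of its own. When it binds peptide presented by MHC, Lck, held at the coreceptor CD4, phosphorylates tyrosine motifs in the CD3 chains, and the kinase ZAP-70 docks there and phosphorylates the scaffold LAT. LAT and its partner SLP-76 then gather phospholipase C-γ, Ras activators and VAV, which start calcium entry, MAP kinase and NF-κB signalling, while phosphatases, ubiquitin ligases and diacylglycerol kinases restrain the cascade. In Th17 cells the strength of this signal is known to affect how much IL-17 is made.

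The genes of the CD3 γ, δ and ε chains lie side by side on chromosome 9 (mm10), within 40056 bases. Cd3g runs from 44969572 to 44980431 on the minus strand and Cd3d from 44981786 to 44987339 on the plus strand, so the pair is divergent with starts 1355 bases apart. Cd3e occupies 44998740 to 45009627 on the minus strand. Cd247, the gene of the ζ chain, lies apart on chromosome 1 (165788681 to 165877277, plus strand), and Lat, the member of smallest p, on chromosome 7 (126363824 to 126369570, minus strand). Their promoter windows are shown because these are the receptor's own chains and the member nearest to a difference. Each runs 5′ to 3′ from 250 bases before to 50 bases after a RefSeq start (GRCm38.p6). The positions are chr9:44980382-44980681 for Cd3g, chr9:44981536-44981835 for Cd3d, chr9:45009562-45009861 for Cd3e, chr1:165788431-165788730 for Cd247 and chr7:126369519-126369818 for Lat. Capitals mark the letters AGGAAG (the core read by ETS factors), TGTGGT (RUNX), CAGCTG or CACCTG (E-box), TATAAA, as in a TATA box, and GGGCGG, as in a GC box, on either strand, overlaps allowed.
Cd3g: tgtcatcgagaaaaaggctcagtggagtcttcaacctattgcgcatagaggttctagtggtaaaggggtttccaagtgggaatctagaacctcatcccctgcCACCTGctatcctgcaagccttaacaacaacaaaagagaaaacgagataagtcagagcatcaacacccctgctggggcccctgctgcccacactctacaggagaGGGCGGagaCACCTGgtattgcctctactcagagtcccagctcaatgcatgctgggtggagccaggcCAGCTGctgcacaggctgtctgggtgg
Cd3d: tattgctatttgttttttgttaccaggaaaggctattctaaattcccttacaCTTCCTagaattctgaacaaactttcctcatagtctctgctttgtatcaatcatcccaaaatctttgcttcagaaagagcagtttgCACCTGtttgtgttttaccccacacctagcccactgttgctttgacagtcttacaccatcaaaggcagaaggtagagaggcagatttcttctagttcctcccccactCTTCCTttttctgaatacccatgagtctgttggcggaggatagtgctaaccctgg
Cd3e: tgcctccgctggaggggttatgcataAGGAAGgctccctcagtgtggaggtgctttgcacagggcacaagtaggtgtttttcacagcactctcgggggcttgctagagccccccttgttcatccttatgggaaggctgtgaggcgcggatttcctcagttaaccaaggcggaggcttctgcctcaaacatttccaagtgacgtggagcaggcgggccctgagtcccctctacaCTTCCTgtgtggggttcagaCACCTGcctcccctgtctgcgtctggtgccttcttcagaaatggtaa
Cd247: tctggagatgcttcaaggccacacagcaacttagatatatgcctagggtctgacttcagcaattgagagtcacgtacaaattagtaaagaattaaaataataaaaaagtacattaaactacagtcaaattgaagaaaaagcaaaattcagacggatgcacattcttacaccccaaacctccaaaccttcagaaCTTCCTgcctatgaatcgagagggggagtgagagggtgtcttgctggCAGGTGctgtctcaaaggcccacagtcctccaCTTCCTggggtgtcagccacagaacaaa
Lat: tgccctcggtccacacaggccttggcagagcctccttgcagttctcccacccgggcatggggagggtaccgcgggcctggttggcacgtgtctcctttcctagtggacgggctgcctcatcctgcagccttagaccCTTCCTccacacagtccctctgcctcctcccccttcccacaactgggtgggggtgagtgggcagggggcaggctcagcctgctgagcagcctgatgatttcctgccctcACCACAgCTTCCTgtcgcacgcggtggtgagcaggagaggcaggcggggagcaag

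None of these 5 windows held the TATA box letters. The ETS core letters occurred at 2 places each in Cd3d, Cd3e, Cd247 and Lat and at none in Cd3g, which held the GC box letters once. CACCTG or its complement was present in the Cd3g, Cd3d, Cd3e and Cd247 windows and missing from that of Lat. GC content ran from 42.3% in the Cd3d window to 65.7% in that of Lat. Windows were found for 34 of the 38 members (49 windows, as some genes have several starts), and not for Cd4, Cd2, Cd6 and Malt1. The ETS core letters stood in 65.3% of the member windows and in 35.4% of all 32851 windows of this length, the E-box CACCTG in 32.7% and 20.2%, and the GC box in 42.9% and 35.7%. TATAAA went the other way, at 8.16% of member windows and 13.6% of all, while TGTGGT (14.3% and 16.8%) and CAGCTG (12.2% and 16.3%) differed less. These are matches of letters, and binding was not measured. By gene, 25 of the 34 members held the ETS core letters in any window. Member windows were richer in GC, at a median of 57.3% against 52.7% of all windows. The part of GC content in these shares was not tested.

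The machinery was expressed at high levels, with 33 of the 38 members above a mean normalized count of 1000 in the authors' deposited table. To compare genes, levels are given here as mean normalized counts per kilobase of exon, computed from the authors' deposited table and the union of GENCODE exons. That length overstates the transcript of a gene with many annotated isoforms, and no spread between cultures is attached to these levels, so close neighbours in the order are not ranked against each other. The adhesion receptor gene Cd2 (4505 per kb) and Cd4 (3791), the surface marker of the labelled cell type, stood highest. By deposited mean Cd4 was above Cd2, at 15286 and 7843 normalized counts. Among the receptor chains Cd3g was at 2311, Cd3d at 1357, Cd3e at 1262 and Cd247 at 751 per kb, 3.08-fold under Cd3g. The last place of the ζ chain gene rests on the lengths used, 5329 bases for Cd247 and 1815 for Cd3d. By deposited mean Cd3d was the lowest, at 2463 normalized counts against 4005 for Cd247. Ptprc, which encodes the phosphatase CD45 that primes Lck, had the largest mean of all members in the authors' deposited table, 26618 normalized counts, but at 1454 per kb it was close to the inhibitory receptor gene Cd5 (1436). Cd6, the relative of Cd5 that lies 50338 bases from it on chromosome 19, was at 705 per kb.

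**Figure D1:**
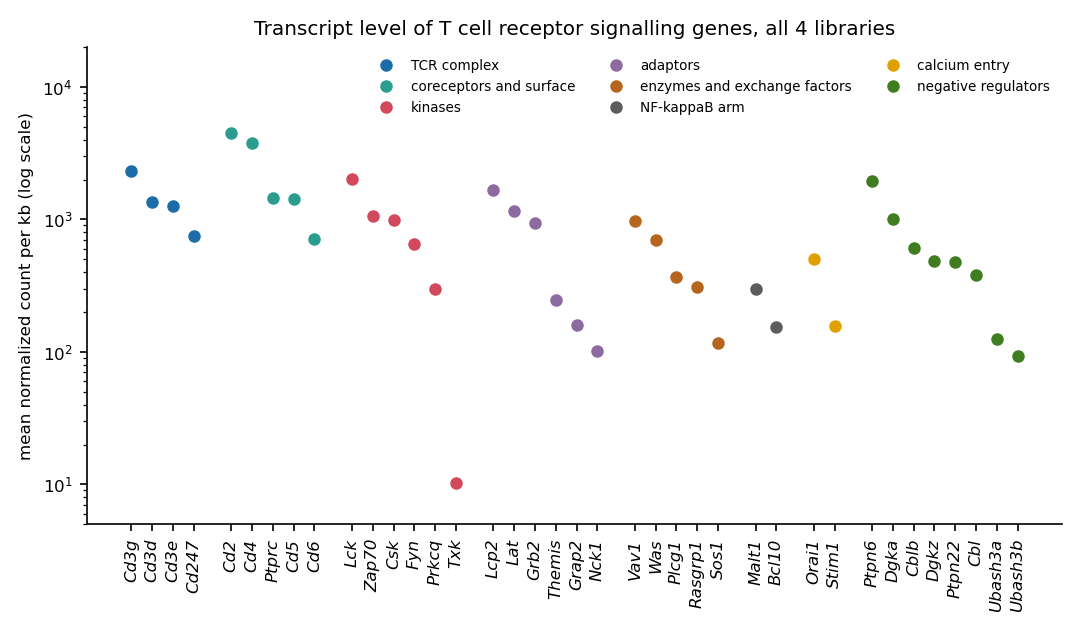
Mean normalized count per kilobase of exon over the 4 libraries (y axis, log scale) for the 38 genes, grouped and coloured by role (x axis); each point is 1 gene and has no error bar, as values per culture were not used. Cd2 and Cd4 are highest at 4505 and 3791, and Txk is lowest at 10.3.

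Among the kinases, the level of Lck (2030 per kb) was 3.13-fold that of Fyn (648 per kb), the other Src-family kinase of T cells. Csk, which phosphorylates the inhibitory tail tyrosine of both, was at 984, and Zap70 at 1059 per kb. Prkcq, the protein kinase C isoform of the T cell contact zone, was at 299. Txk, a Tec-family kinase, stood far below every other member at 10.3 per kb, its mean in the authors' deposited table being 112 normalized counts. Its union of exons is long (10955 bases), which lowers the figure per kb. Of the adaptor genes, Lcp2 (SLP-76) was at 1665, Lat at 1158 and Grb2 at 939 per kb. Lower per kb were Themis at 244, Grap2 (GADS) at 159 and Nck1 at 101. Themis has a long union of exons (11682 bases, against 2916 for Grb2). Its deposited mean of 2855 normalized counts was above that of Grb2 (2739). Grap2 and Grb2 are relatives, and Grb2 was 5.90-fold higher per kb.

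Downstream enzymes ranged from Vav1, a guanine exchange factor, at 969 per kb to Sos1, a Ras exchange factor, at 116. Was, the actin regulator mutated in Wiskott-Aldrich syndrome, was at 701, Plcg1 at 370 and the Ras exchange factor gene Rasgrp1 at 308 per kb. Of the partners that link the receptor to NF-κB, the paracaspase gene Malt1 was at 300 and Bcl10 at 155 per kb. The calcium channel gene Orai1 (500 per kb) exceeded that of its sensor Stim1 (156) by 3.20-fold per kb. This order rests on the lengths used, 2295 bases for Orai1 and 10371 for Stim1. Their deposited means went the other way, at 1147 and 1619 normalized counts. In each pair of related negative regulators one gene was the higher: Dgka over Dgkz by 2.06-fold (1003 and 487 per kb), Cblb over Cbl by 1.58-fold (607 and 383) and Ubash3a over Ubash3b by 1.35-fold (126 and 93.6). The phosphatase gene Ptpn6 (SHP-1) was at 1942 per kb and Ptpn22 at 477.

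The comparison asked whether transcripts of this pathway differ in Th17 cells that received the Adarb1 guide from those of the same mice with the empty vector. None of the 38 members passed. No adjusted p of a member was below 0.05 in the authors' deposited table (0 members, DESeq2, adjusted over 29383 genes), against 0 of all genes (0.00%). No member had an unadjusted p below 0.05 either, against 61 genes overall (0.208%), and none was among the 3 genes (0.0102%) below an adjusted p of 0.1. Of the 38 members 25 had a positive log2 fold change and 13 a negative one in the authors' deposited table, with a median of 0.03, where 50.9% of all genes were positive and the median was 0.004. Among the 3664 genes whose mean was 1000 or more, 49.2% were positive (median -0.002), and of the 33 members at that level 23 were (median 0.03). The median SE of a single member was 0.11, and the list's median was not tested. In whole cultures, fewer T cells and less RNA per T cell cannot be told apart.

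Taking the authors' grouping and SE as given, the data bound the size of the difference for each gene, most of them closely. The grouping was not checked here. All 38 intervals (95%, from the SE in the authors' deposited table) spanned 0. For 27 members the interval lay within 0.3 on the log2 scale in either direction (1.23-fold), for 36 within 0.5 (1.41-fold), and for 37 within 1 (2-fold). Bcl10 and Txk reached beyond 0.5, and Txk alone beyond 1. To pass on its own, a member would have needed a log2 fold change between 0.37 (Ptprc) and 2.08 (Txk), with a median of 0.51. The differences were smaller than that throughout: 33 of the 38 were below 0.1 in size in the authors' deposited table, and 33 were smaller than their own SE. The other 5 by the second measure were Lat, Orai1, Cd4, Cd5 and Cd3d, all positive.

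**Figure D2:**
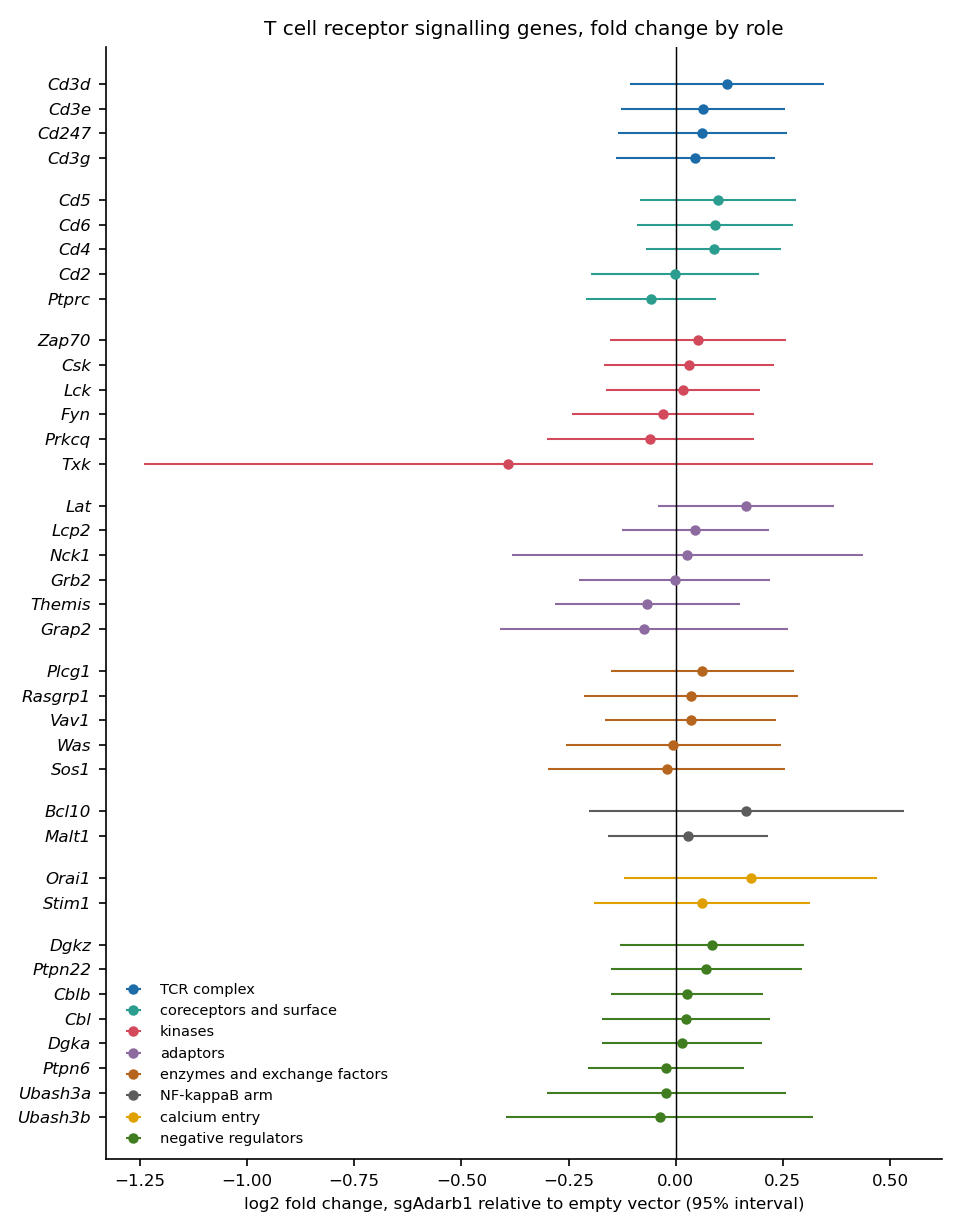
Log2 fold change of each of the 38 genes in sgAdarb1 relative to empty vector (x axis), with the 95% interval from the SE in the authors' deposited table; rows are genes, grouped and coloured by role. Every interval crosses 0, the 4 CD3 and ζ chain genes all lie to the right of it, and the interval of Txk is the widest, from -1.24 to 0.46.

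The receptor chains all had small positive values, from 0.05 to 0.12, and none passed. In the authors' deposited table Cd3d was at 0.12 ± 0.12 (log2 fold change ± SE), with a 95% interval from -0.11 to 0.35. Cd3e was at 0.06 ± 0.10 and Cd247 at 0.06 ± 0.10 in the authors' deposited table. Cd3g, the highest of these genes in level, was at 0.05 ± 0.09 in the authors' deposited table, an estimate of 1.03-fold with bounds of 0.908 and 1.17. The divergent neighbours Cd3g and Cd3d thus differed by less than the SE of either. Trac, the constant segment of the receptor's α chain, was at 0.11 ± 0.10 in the authors' deposited table.

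The coreceptor gene Cd4 was at 0.09 ± 0.08 in the authors' deposited table, among the smallest SE of the members. Cd5 and Cd6, neighbouring genes of scavenger-receptor-family proteins that dampen receptor signals, were at 0.10 ± 0.09 and 0.09 ± 0.09 in the authors' deposited table. Cd2 was at -0.002 ± 0.10 and Ptprc at -0.06 ± 0.08 in the authors' deposited table. The interval of Ptprc, -0.21 to 0.09, was the tightest around any member.

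Among the kinases 3 were positive and 3 negative. Lck was at 0.02 ± 0.09, with an interval from -0.16 to 0.20, in the authors' deposited table. Its partner Fyn was at -0.03 ± 0.11 and the inhibitory kinase gene Csk at 0.03 ± 0.10 in the authors' deposited table. Zap70 was at 0.05 ± 0.10 and Prkcq at -0.06 ± 0.12 in the authors' deposited table. The value of Txk was the lowest of the 38, -0.39 ± 0.43 in the authors' deposited table, and also the least certain: its interval runs from a 0.423-fold level to a 1.38-fold one (unadjusted p = 0.368, adjusted p = 1.00).

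Lat, the scaffold on which the signal is assembled, had the smallest p of the members. In the authors' deposited table it was at 0.16 ± 0.10, an estimated 1.12-fold level with an interval from 0.972 to 1.29 (unadjusted p = 0.118, adjusted p = 1.00). Its partner gene Lcp2 was at 0.05 ± 0.09 in the authors' deposited table. The other adaptors lay nearer 0 relative to their errors than Lat did: Grb2 at -0.003 ± 0.11, Nck1 at 0.03 ± 0.21, Themis, a regulator of Lck and SHP-1, at -0.07 ± 0.11, and Grap2 at -0.07 ± 0.17 in the authors' deposited table.

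The downstream enzymes and exchange factors ran from -0.02 to 0.06, each value smaller in size than its SE. Plcg1 was at 0.06 ± 0.11, Rasgrp1 at 0.04 ± 0.13 and Vav1 at 0.03 ± 0.10 in the authors' deposited table. Was (-0.01 ± 0.13) and Sos1 (-0.02 ± 0.14) were on the negative side in the authors' deposited table. In the NF-κB arm Bcl10 was at 0.17 ± 0.19 and Malt1 at 0.03 ± 0.10 in the authors' deposited table. The calcium pair gave the highest estimate of all members, that of Orai1, at 0.17 ± 0.15 (1.13-fold, interval 0.919 to 1.39, unadjusted p = 0.248), with Stim1 at 0.06 ± 0.13 in the authors' deposited table.

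Negative regulators did not pass either, 5 positive and 3 negative, with values from -0.04 to 0.08. The diacylglycerol kinase genes Dgkz and Dgka were at 0.08 ± 0.11 and 0.01 ± 0.10 in the authors' deposited table. The ubiquitin ligase genes Cblb and Cbl stood at 0.03 ± 0.09 and 0.02 ± 0.10, and the phosphatase genes Ptpn22 and Ptpn6 at 0.07 ± 0.11 and -0.02 ± 0.09, in the authors' deposited table. Ubash3a and Ubash3b, which encode the STS phosphatase pair, were at -0.02 ± 0.14 and -0.04 ± 0.18 in the authors' deposited table. A difference between activating and restraining components was not tested.

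The SE of each member followed its level. Relative to the running median of genes of like mean, the members' SE in the authors' deposited table ran from 0.951 times (Ptprc) to 1.12 times (Cd2), with a median of 0.999. The members are therefore typical of genes at their level in how uncertain they are, and those under 1000 normalized counts (Grap2, Bcl10, Ubash3b, Nck1 and Txk) have the wide intervals. The spread of the Wald statistics (log2 fold change over SE) was narrow, with an SD of 0.57 over the 38 members and a robust SD of 0.54 among all 14547 genes whose mean was 10 or more. The SE were thus large beside the scatter of the fold changes, and 0.208% of all genes had an unadjusted p below 0.05. That a member did not pass is therefore weak evidence that it did not differ. With the Wald statistics scaled by their spread, the smallest adjusted p of a member was 0.299.

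**Figure D3:**
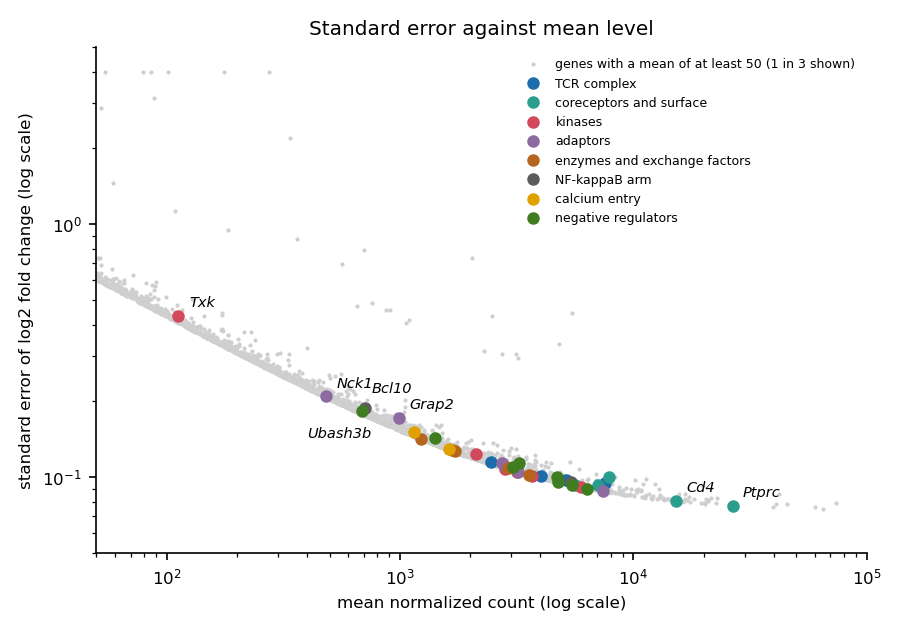
Standard error of the log2 fold change (y axis, log scale) against the mean normalized count (x axis, log scale) in the authors' deposited table; coloured points are the 38 genes by role, grey points an even sample of genes whose mean was 50 or more. The 38 genes lie within the band of other genes of the same level, from Txk at an SE of 0.43 to Ptprc at 0.08.

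Fold changes in these libraries varied with base composition, among the members too. Across these 3664 genes of high mean, the log2 fold change in the authors' deposited table and the GC content of the longest transcript had a Pearson r of 0.40 (Spearman rho 0.42). Across the 38 members r was 0.32 and rho 0.29, and without Txk 0.36 and 0.27. These are descriptions across genes, which share the same libraries and are not independent replicates. The 10 members richest in GC, had a median log2 fold change of 0.06, with 8 positive, and the 10 poorest one of 0.03, with 6 positive. The rich group held the 2 members of smallest p, Lat (57.5%) and Orai1 (58.6%), but also Csk (60.1%), Was (55.8%) and Ptpn6 (54.9%), at 0.03, -0.01 and -0.02 in the authors' deposited table. The poor group held Themis and Ptprc on the negative side and Cd3g (38.5%) and Malt1 on the positive side. A weighted linear trend, fitted to all genes whose mean was 10 or more, had a slope of 0.06 per 10 percentage points of GC and of -0.01 per doubling of length.

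With that trend removed the members were 23 positive and 15 negative, with a median of 0.04, and 8 of them changed sign. On the same scale 14013 of all genes were positive and 15370 negative. Among genes whose mean was 1000 or more, 1778 were positive and 1886 negative. The CD3 and ζ chain genes all lay between 0.08 and 0.09, and with an unweighted trend Cd3d was at 0.13, Cd3e at 0.11, Cd3g at 0.15 and Cd247 at 0.11. All 6 kinase genes were negative on this scale: Lck (-0.02), Csk (-0.04) and Zap70 (-0.02) had been positive, and Fyn, Prkcq and Txk had been negative already. Each of these 6 values was smaller in size than the SE of its gene. Lat and Orai1 were at 0.10 each and Malt1, whose transcript is the poorest in GC of the members (35.8%), at 0.13. Of the members that had been negative, Ptprc was at 0.02, Themis at 0.01 and Sos1 at 0.04. Vav1 (-0.001) and Dgka (-0.003) were about 0. None of these values passed, and the part of base composition in the members' fold changes was otherwise not tested.

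**Figure D4:**
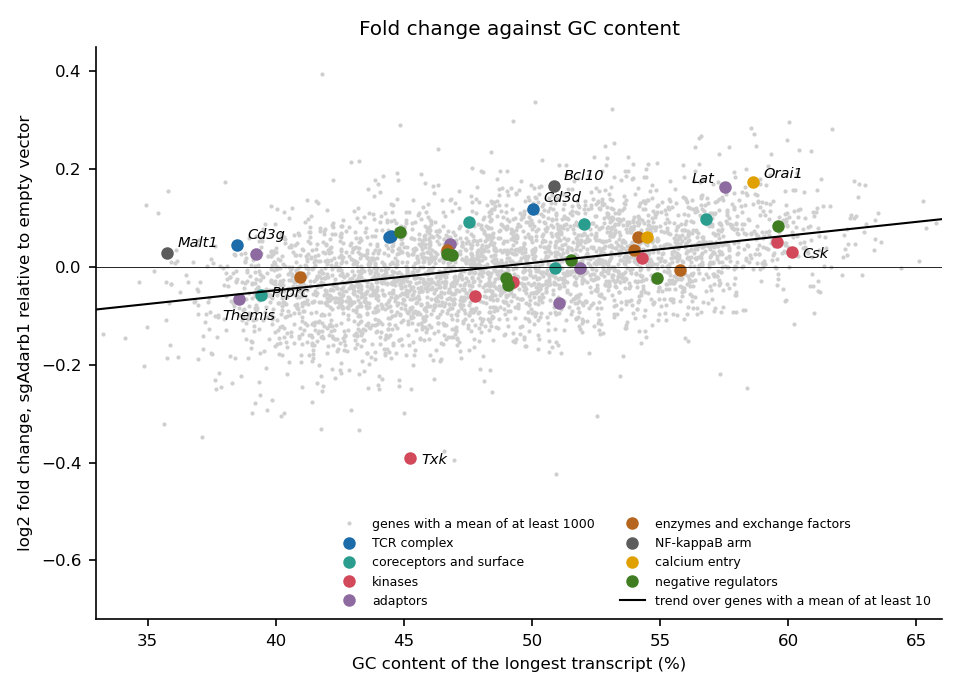
Log2 fold change in sgAdarb1 relative to empty vector (y axis) against the GC content of the gene's longest transcript in percent (x axis); coloured points are the 38 genes by role, grey points genes whose mean was 1000 or more, inside the axes, and the line is the weighted trend at the members' median length. Lat and Orai1 lie at the GC-rich end with the higher values, and Txk lies far below the line at -0.39.

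Other genes of the pathway, in the lists reported here, gave no call either. Over 4 lists with 55 genes in all, 30 were positive and 25 negative, 0 passed at an adjusted p of 0.05, and 0 had an unadjusted p below 0.05 in the authors' deposited table. Of all 29383 genes 50.9% were positive, 0 passed and 0.208% had an unadjusted p below 0.05. The lists' counts of 0 are thus near the share over all genes. Other proximal components were positive in 14 of 21 (median 0.03). Of these, Vav3, a relative of Vav1, had the smallest p at -0.30 ± 0.18 (unadjusted p = 0.0968) in the authors' deposited table. It was followed by the adaptor gene Lax1 at -0.32 ± 0.28, the integrin gene Itgal at 0.08 ± 0.08, the adaptor gene Sit1 at 0.35 ± 0.36 and the actin regulator Wasf2 at 0.09 ± 0.09 in the authors' deposited table.

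Among other calcium and calcineurin genes 2 of 10 were positive, with a median of -0.03. Itpr1, which encodes an IP3-gated calcium channel of the endoplasmic reticulum, was at -0.14 ± 0.09 and Ppp3ca, a calcineurin catalytic subunit, at -0.18 ± 0.18 in the authors' deposited table. Orai3 was at 0.15 ± 0.25, Itpr2 at -0.07 ± 0.14 and Stim2 at -0.05 ± 0.15 in the authors' deposited table. With the trend on GC and length removed, 4 of the 10 were positive.

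Ras and MAP kinase genes were positive in 9 of 12 (median 0.02), led by the kinase genes Map2k2 at 0.10 ± 0.12, Mapk3 (ERK1) at 0.11 ± 0.16 and Map3k1 at 0.07 ± 0.11, with Rasal3 and Map2k1 at 0.03 ± 0.12 each, in the authors' deposited table. Among other negative regulators 5 of 12 were positive (median -0.02). Ptpn7, a phosphatase of MAP kinases, was at -0.15 ± 0.12, and the ubiquitin ligase gene Itch at -0.11 ± 0.12, while Dok1 (0.21 ± 0.24), Inpp5d, encoding SHIP-1 (0.10 ± 0.11), and Dok2 (0.09 ± 0.15) were positive in the authors' deposited table.

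The cultures were T cells by their markers, with low levels of others. Trac reached 5007 per kb and the Th17 cytokine genes Il17a and Il17f 1500 and 1849 per kb. Il17a was at 0.70 ± 0.15 (adjusted p = 0.0709) in the authors' deposited table, which does not pass over all 29383 genes. Its unadjusted p was the smallest of all genes. With the adjustment restricted to means of 10 or more 3 genes passed, and to 50 or more 2, Il17a among them both times. Summed over each list, B cell markers came to 350.0 per kb (5 genes), CD8 T and NK markers to 367 (6 genes), γδ T markers to 60.4 (3 genes), mast cell markers to 35.7 (5 genes) and myeloid and dendritic markers to 33.1 (7 genes), and no marker was at 0 in all libraries. Ptprc, Ptpn6, Vav1, Grb2 and other members are also expressed by such cells. The B cell marker Ms4a1 had an SE of 3.97 in the authors' deposited table, against at most 0.43 among the members, and 2 of 5 B cell, 2 of 6 CD8 T and NK, 6 of 7 myeloid and 1 of 5 mast cell markers were positive. Among mast cell markers the protease gene Cpa3 was at -5.66 ± 1.26 with a mean of 28.7 (unadjusted p = 7.23e-06, adjusted p = 0.0709) and Cma1 at -4.70 ± 1.98 with a lower mean (unadjusted p = 0.0177) in the authors' deposited table. Neither passes the adjusted threshold over all 29383 genes. Cpa3 was among the 3 genes that passed with the adjustment restricted to means of 10 or more. At such low means a fitted value sets no limit on the fold. The part of these cells in the members' values was not tested. Adarb1 itself, the targeted gene, was at 0.11 ± 0.12 in the authors' deposited table, and a Cas9 cut need not lower the mRNA, so this does not check the labels.

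There were 10 members that overlap another annotated gene with a mean of at least 20, 15 such genes in all, 9 of them on the opposite strand. Overlap was taken over whole gene spans, introns included, and shared exon bases were not measured. No source used here states whether reads were counted by strand. Whether reads of such partners entered a member's count is therefore not known. The largest partners were Pou2f1, at 23.3% of the mean of Cd247 (-0.16 ± 0.16 in the authors' deposited table), and Zhx3, at 15.9% of that of Plcg1 (0.07 ± 0.22 in the authors' deposited table). The partner of each other member concerned came to at most 5.37% (Gm9821 with Dgkz). The CD3 genes of chromosome 9 had none apart from Gm48720, at 0.537% of Cd3e.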

How the data were processed

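RNA was measured in 4 cultures, 2 per group, grouped here by title. Per the submitters' processing notes, the tools included STAR (2.6.1a), featureCounts and DESeq2 (version 1.18.1), and the build was mm10. No source used here gives the model formula, the strand setting or the annotation. Per the file headers, the authors deposited for each gene a mean signal (the mean of size-factor-normalized counts, called the mean normalized count), a log2 fold change with its SE, the Wald score, and the p-value with its adjusted p. The Wald score equalled fold change over SE, and the adjusted p was that of Benjamini and Hochberg over 29383 genes, the 26067 others having a mean of 0. The table's 4 columns of values per library match no sample label and were not used, so depth and spread per culture are unknown here.

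Computed here (Python 3.11.15, numpy 2.4.6, pandas 2.3.3, scipy 1.17.1): 95% normal intervals, levels per kb of exon (GENCODE M21), counts and medians, and the alternatives of the closing section. The log2 fold change needed to pass alone is the SE times the normal quantile of 0.05 over all tested genes. The trend removal and the adjustment were tested on simulated fold changes, with noise drawn at the deposited SE. The scatter of the real Wald statistics was narrower than such noise (robust SD 0.54). The scaling of Wald statistics was not part of that test. Members and lists were chosen with earlier results of these data known. 1 further pathway list and 1 marker gene are not reported here, for a reason unrelated to their values. All members are named, and of each other pathway list the 5 genes of smallest unadjusted p. In the marker lists, genes were named as examples after their values were seen, as were the overlapping genes. The gene symbols of all 55450 identifiers came from GENCODE M21 and the promoter windows from RefSeq (GRCm38.p6).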

Additional observations from a re-analysis of the deposited data

How the results depend on the processing

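No member passed under any setting run: adjustment restricted to means of 10 or more or 50 or more, thresholds of 0.1 and 0.01, Wald statistics scaled by their spread (34 genes passed, and the smallest adjusted p of a member was 0.299), the GC and length trend removed (weighted or not), or the trend removed and the statistics scaled (27 genes passed, smallest member 0.526). Among all genes, 3 passed with the adjustment restricted to means of 10 or more, and 2 with 50 or more. With the trend removed 3 passed, or 1 without weights. The unweighted trend and its combination with scaling were added after the data were seen. The members' median log2 fold change, 0.0295, was positive in each setting, from 0.0163 with the unweighted trend removed to 0.0382 with the weighted one. It has no replicate spread to be judged against. With the weighted trend removed 30 members kept their sign and Ptprc (0.0190), Lck (-0.0245), Csk (-0.0397), Zap70 (-0.0196), Vav1 (-0.0014), Sos1 (0.0363), Dgka (-0.00324) and Themis (0.00672) changed it. Without weights 29 kept it, and the values that changed sign were Cd2 0.00347, Ptprc 0.00976, Lck -0.0138, Csk -0.0546, Zap70 -0.0251, Sos1 0.0415, Dgka -0.00128, Dgkz -0.00396 and Themis 0.0156. Centring on the median of genes at a mean of 10 or more changed no sign. No paired analysis was possible because no per-library column could be matched to a sample. For the same reason edgeR and DESeq2 refits, other size factors, the omission of a culture and groups by the treatment tag were not run.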
